A study of Mus musculus with 18 samples.

Results

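The response to ultraviolet B (UVB) was measured in epidermis of K14-OPN mice, in which the keratin 14 promoter, active in basal keratinocytes, drives osteopontin (OPN). The comparison took every library labelled with that genotype, 3 irradiated and 3 unirradiated, which is 6 of the 18 libraries of the study. All 6 came from mice that also carry the OPN-null background, so neither condition had osteopontin from the animal's own gene. The mice were males of 10 weeks. Those irradiated were shaved 48 h before a UVB dose of 180 mJ per cm2. No shaving is recorded for the unirradiated libraries, and what shaving adds to the comparison was not tested. Dorsal skin was taken 24 h after the dose or from mice that received none. The epidermis was scraped off with a razor blade into TRIzol, and the molecule sequenced is described as polyA RNA for all libraries. The other 12 libraries, from wild-type (WT) and OPN-null mice with and without UVB, entered the same statistical model. The labels say neither whether a library held 1 mouse or a pool nor which transgenic line was used. Nothing says that libraries of a group came from separate mice, and the p-values therefore cover the spread between the libraries at hand, which may be partly technical. Libraries are named by condition and the number in their labels, as UVB 1, 2 and 3 and unirradiated 1, 2 and 11.

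UVB damages DNA in keratinocytes, and the p53 protein then switches on genes that halt the cell cycle, bypass or repair lesions and promote cell death. Injured epidermis also releases ligands of the EGF receptor and cytokines, and it replaces part of its keratins and envelope proteins with those seen in wounds. Osteopontin, the product of Spp1, is a phosphoprotein released by injured epithelia and macrophages, and cells sense it through integrins and CD44.

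The promoters of a gene that rose and a gene that fell are given as examples and do not stand for their groups. Both genes passed the test in every fit that left out 1 of the 6 libraries. The Tinagl1 entry was kept because it holds the motif marked in it. Tinagl1 encodes a secreted matrix protein, and Mt4 encodes the metallothionein of stratified epithelia. RefSeq sequences of GRCm38.p6 are given 5′ to 3′ from 200 bases before the gene start to the start base, which is the last letter and a capital. The other capitals mark TGANTCA, where N is any base, in Tinagl1 (chr4:130175122-130175322, minus strand) and TATAAA in Mt4 (chr8:94137004-94137204, plus strand).
Tinagl1: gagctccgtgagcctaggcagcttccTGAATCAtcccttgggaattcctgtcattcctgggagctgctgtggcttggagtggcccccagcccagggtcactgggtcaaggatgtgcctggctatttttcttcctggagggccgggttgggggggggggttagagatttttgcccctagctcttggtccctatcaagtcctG
Mt4: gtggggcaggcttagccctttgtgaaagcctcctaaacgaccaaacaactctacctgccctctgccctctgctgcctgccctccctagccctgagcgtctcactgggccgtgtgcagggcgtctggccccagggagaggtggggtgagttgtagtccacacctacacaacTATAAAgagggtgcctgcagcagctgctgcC

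TATAAA was searched on the gene's strand with its first base between positions -45 and -15 from the start. Genes with at least 1 promoter entry were counted, and a gene matched if any of its entries held the motif. TATAAA matched for 51 of 590 genes that fell after UVB (8.64%), 22 of 467 that rose (4.71%) and 311 of 12023 of all tested (2.59%). Keratin-associated protein genes of hair, named Krtap, made up 19 of those 51. The Krtap genes named further below were all highest in an unirradiated library that held hair. Of them, Krtap3-2 alone passed the test without that library. The TATAAA shares without it were not counted, so how far that library sets the 8.64% was not tested. TGANTCA, searched on both strands over the whole promoter window and counted by gene in the same way, matched for 7.07% of genes that rose, 9.83% of those that fell and 7.40% of all tested. These matches describe letters in the window and not sites in use.

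The 6 libraries differed from each other in ways that the labels do not give. Reads counted to genes ranged from 4213470 in unirradiated 1 to 26068600 in UVB 3. UVB 1 and unirradiated 2 belong to a kind rich in the small nuclear RNA Rn7sk, called 7SK-rich here, and the other 4 to a kind rich in Lars2, called Lars2-rich. Library kind was therefore a term of the model, and every gene can also be read within each kind. Levels are given as CPM, the counts relative to a library size scaled by the TMM method. Unirradiated 11 held hair: the 21 hair shaft markers tested summed to 166395 CPM there and to 36.1 to 333 CPM in the other 5 libraries. Its 8 inner root sheath markers, which mark the layer around a growing hair, summed to 75779 CPM against 34.9 to 354. Unirradiated 1 held transcripts of inflammation: its 9 neutrophil markers summed to 8509 CPM, against 993 to 8528 CPM in the irradiated libraries and 16.1 and 59.4 CPM in unirradiated 2 and 11. Across genes, log2 CPM of unirradiated 1 correlated at r = 0.886 and 0.885 with UVB 2 and 3 and at 0.758 with unirradiated 11, all of the Lars2-rich kind, while UVB 2 and 3 correlated at 0.979. Where leaving out unirradiated 1 or 11 moved a count of list members by more than 1 gene, the count without it is given.

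**Figure D1:**
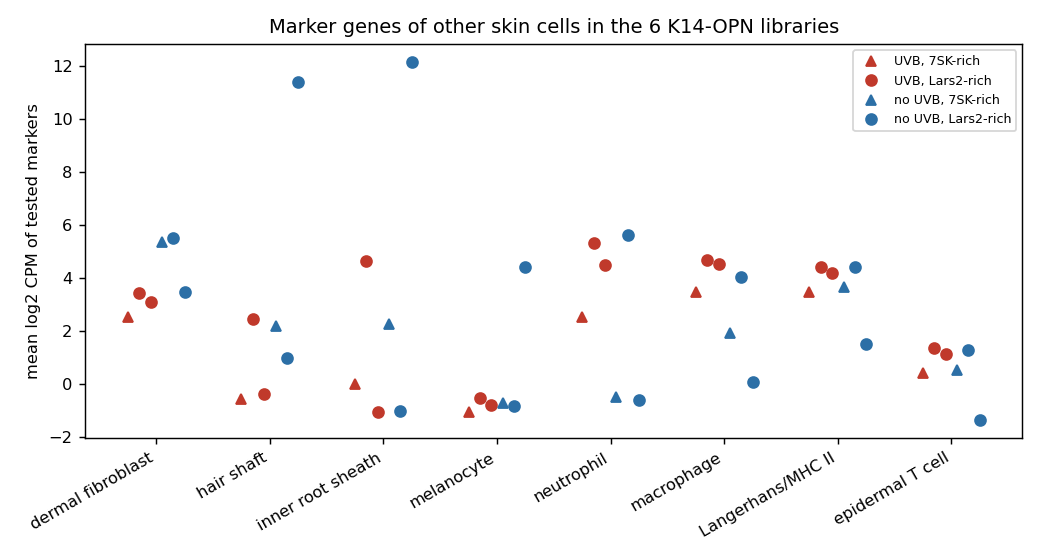
Mean log2 CPM of the tested marker genes of 8 other skin cell types (horizontal axis) in each of the 6 libraries, with colour for UVB and shape for library kind. Unirradiated 11 stands at 11.4 for hair shaft markers, and unirradiated 1 lies with the irradiated libraries for neutrophil markers, at 5.61.

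Spp1 checks the labels (GRCm38 chromosome 5, 104435118 to 104441050, plus strand). It was at 758, 327 and 347 CPM in UVB 1, 2 and 3 and at 58.7, 70.4 and 34.5 CPM in unirradiated 1, 2 and 11. Every irradiated library exceeded every unirradiated one, and all 6 exceeded the highest OPN-null library, at 7.57 CPM. WT libraries were at 272, 385 and 13.2 CPM after UVB and at 45.2 and 2.53 CPM without. Those at 13.2 and 2.53 CPM were 7SK-rich, and the 7SK-rich K14-OPN libraries were higher, at 758 and 70.4 CPM, with 1 such library per group. In the Lars2-rich kind the levels of K14-OPN and WT overlapped in each condition and did not tell these genotypes apart. The K14-OPN means were 477 ± 244 CPM after UVB and 54.5 ± 18.3 CPM without (SD, n = 3 each). The log2 fold change was 3.18 ± 1.02 (standard error of the fit), which did not pass edgeR's quasi-likelihood test over all genes (adjusted p = 0.0643). An exact two-sided permutation test gave p = 0.1, the smallest that 20 assignments of 3 against 3 allow. The count does not separate transcripts of the transgene from others that match Spp1. Krt14, whose promoter drives the transgene, was at 8853, 18770 and 20343 CPM after UVB and at 6613, 1236 and 991 CPM without. Its libraries did not overlap, and its log2 fold change was 2.50 ± 0.64 (edgeR adjusted p = 0.0275). That p was 0.0873, 0.0936 and 0.0854 without UVB 2, UVB 3 or unirradiated 2.

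Among 18910 genes tested, 1458 (7.71%) differed between irradiated and unirradiated K14-OPN epidermis at an edgeR adjusted p below 0.05. Of these, 620 rose (3.28% of all tested) and 838 fell (4.43%). The spread behind the call is shared with the other genotypes: with the 6 K14-OPN libraries alone, edgeR called 0 genes, and 3107 had an unadjusted p below 0.05. Within kinds, 1452 of the 1458 had the called direction in the 7SK-rich pair, and 1376 did not overlap within the Lars2-rich libraries. Both kinds entered the fit that made the calls, so these counts describe the called genes and are no replication. Of all genes tested, 64.6% had the same sign in both kinds, and overlap within the Lars2-rich kind was not counted over all genes. All 6 libraries separated by condition for 1131 of the called genes, against 3919 of all genes (20.7%). Other tools called more genes, with 6.48% higher and 10.3% lower by DESeq2 and 8.83% higher and 12.1% lower by limma, and their counts in the lists are to be read against these shares. Leaving out UVB 2 or UVB 3 brought the count to 342 or 361, and leaving out unirradiated 1 to 2203, with 5.75% higher and 5.69% lower. Without unirradiated 11 it was 1026 of 18216 (5.63%), with 466 genes that rose (2.56%) and 560 that fell (3.07%), and 826 genes passed both with and without that library. Unirradiated 11 was the highest unirradiated library for 420 of the 838 genes that fell, and unirradiated 1 for 221 of the 620 that rose. How often each library was the highest over all genes tested was not counted. In whole epidermis, fewer cells of a type and less RNA per cell cannot be told apart.

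**Figure D2:**
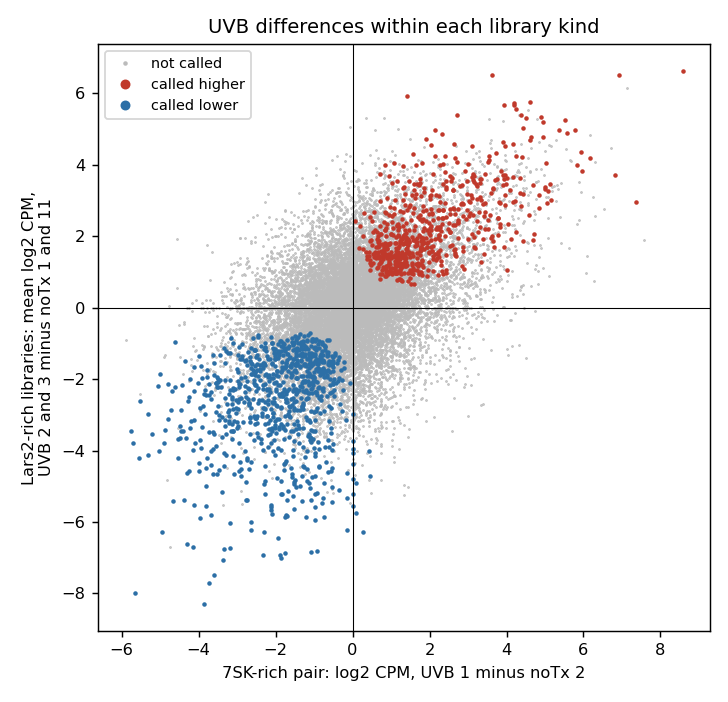
Difference in log2 CPM between irradiated and unirradiated libraries in the 7SK-rich pair (horizontal axis) and in the 4 Lars2-rich libraries (vertical axis), with 1 point per gene tested. Genes that passed the test are coloured, and 1452 of the 1458 have the same sign on both axes, against 64.6% of all genes tested.

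The 12 highest fold changes, among called genes whose log2 CPM averaged 2 or more over the 6 libraries and whose conditions did not overlap within the Lars2-rich kind, included a cytokine, an EGF receptor ligand, a protease and metabolic enzymes. Lgi2, one of the leucine-rich glioma-inactivated family of secreted proteins, was at 60.4, 52.4 and 46.3 CPM after UVB and at 1.82, 0.354 and 0 CPM in unirradiated 1, 2 and 11. Il24, a cytokine of the IL-20 family, was at 83.7, 121 and 129 CPM after UVB and at 10.7, 0.0708 and 0 CPM without. Both genes were separated by condition, and unirradiated 1 was the highest of its group for each. The log2 fold change of Lgi2 was 6.63 ± 0.81 (edgeR adjusted p = 0.000808) and that of Il24 5.43 ± 1.13 (adjusted p = 0.00967). Without unirradiated 1 the Il24 value was 10.99, against a pair of unirradiated libraries that held almost no reads of it.

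Epgn encodes epigen, a ligand of the EGF receptor, and its values in UVB 1, 2 and 3 were 282, 354 and 494 CPM against 21.8, 5.03 and 8.14 CPM in unirradiated 1, 2 and 11. This is a log2 fold change of 5.12 ± 0.57 (edgeR adjusted p = 0.000352). Gsta4, a glutathione transferase that detoxifies lipid peroxidation products, was at 55.0, 134 and 87.0 CPM after UVB and at 5.71, 1.06 and 1.25 CPM without, a log2 fold change of 5.34 ± 0.86. Tinagl1, shown above, rose from 17.1, 3.97 and 1.67 CPM to 128, 201 and 206 CPM, by 4.65 ± 0.69 on the log2 scale (edgeR adjusted p = 0.00145). Others of the 12 highest were Tmprss11b (4.41 ± 0.92), an epithelial serine protease, Sh2d5 (4.35 ± 0.80), an SH2 domain protein, and Krt6a (3.82 ± 0.85), a wound keratin. Thbd (3.72 ± 0.96), thrombomodulin, Pglyrp3 (3.71 ± 0.60), a peptidoglycan recognition protein, and Odc1 (3.59 ± 0.77), the rate-limiting enzyme of polyamine synthesis, were also among them. In these 11 genes the irradiated and unirradiated libraries did not overlap, which their choice had required within the Lars2-rich kind. All but Thbd passed in each of the 6 fits that left out 1 K14-OPN library. Thbd had edgeR adjusted p of 0.0873, 0.0953 and 0.0867 without UVB 2, UVB 3 or unirradiated 2.

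**Figure D3:**
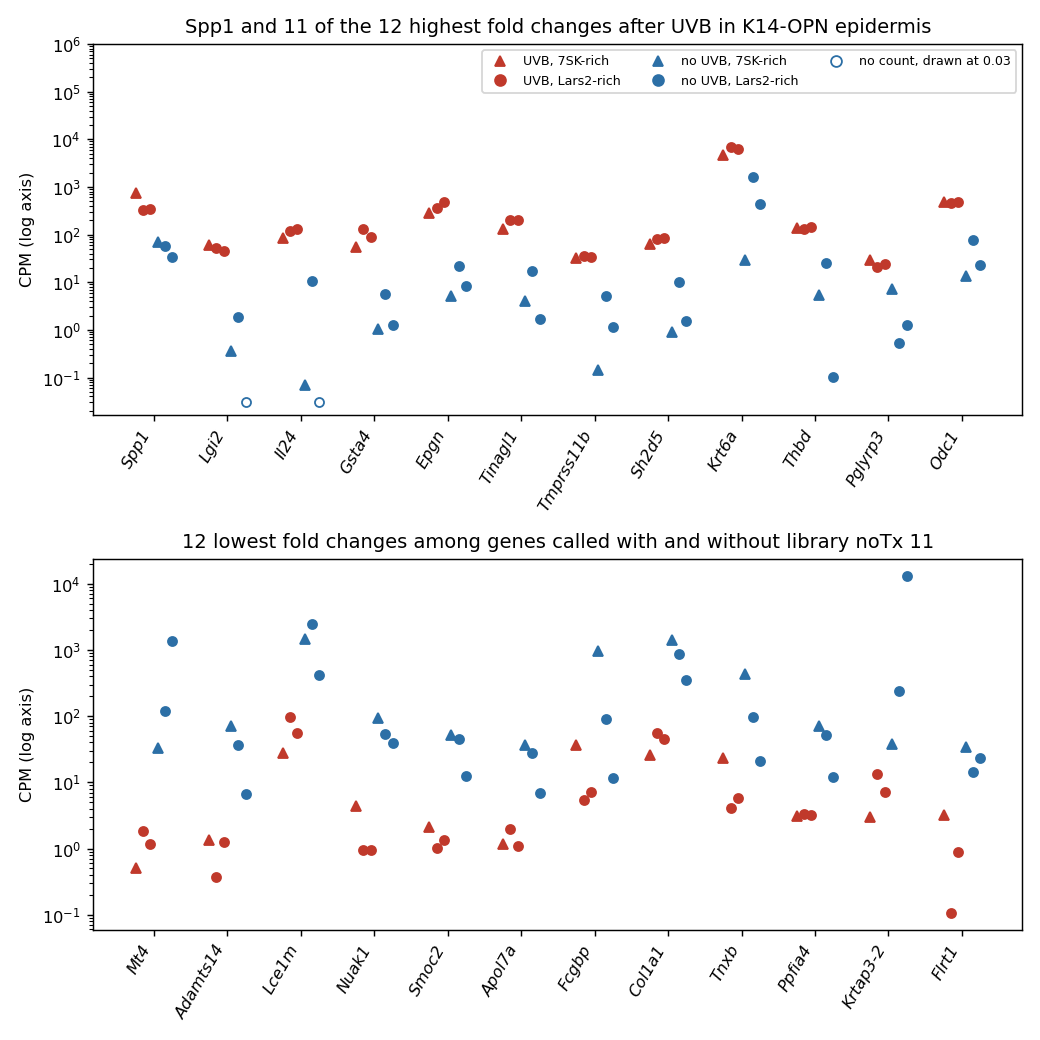
CPM on a log axis of Spp1 and 11 of the 12 genes with the highest fold changes (top) and of the 12 lowest among genes that passed with and without unirradiated 11 (bottom), with 1 point per library. Red marks UVB, blue no UVB, and libraries of a gene stand in the order UVB 1, 2, 3, unirradiated 2, 1, 11. The irradiated points lie above all unirradiated points for every gene of the top panel.

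The lowest fold changes under the same limits were mostly those of hair genes. Other hair genes had fold changes as low, with a median of -9.27 over the 21 hair shaft markers tested, and were left out by those limits. Of the 12 lowest, 7 were keratin-associated protein genes (Krtap22-2, Krtap19-9b, Krtap19-5, Krtap2-4, Krtap19-2, Krtap3-1 and Krtap3-2), and the others were Mt4, Tchh, Fabp4, Psors1c2 and Fhod3. Krtap22-2, the lowest at a log2 fold change of -11.02 ± 2.75, was at 29620 CPM in unirradiated 11 and at 21.8 and 7.93 CPM in unirradiated 1 and 2, against 0.406, 8.03 and 0.654 CPM after UVB. The value in unirradiated 11 set this fold change, and without that library it was -3.40 (edgeR adjusted p = 0.205). Without unirradiated 11, Mt4 and Krtap3-2 alone of the 12 passed, at -6.47 ± 0.94 and -4.24 ± 0.90. Mt4 was at 0.507, 1.86 and 1.17 CPM after UVB and at 121, 32.8 and 1385 CPM without. Its irradiated libraries were all below the unirradiated ones. Krtap3-2 did not pass without UVB 2 or UVB 3 (edgeR adjusted p of 0.0607 and 0.0595).

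Genes that fell with and without unirradiated 11 included a kinase, matrix genes and a late envelope gene, chosen after their values were seen. Nuak1, an AMPK-related kinase, was at 4.36, 0.957 and 0.954 CPM after UVB and at 53.8, 93.7 and 38.8 CPM in unirradiated 1, 2 and 11. All irradiated libraries lay below all unirradiated ones, and the log2 fold change was -5.01 ± 0.54 with that library and -5.17 ± 0.55 without it. Adamts14, a protease that trims procollagen, was at 1.37, 0.372 and 1.25 CPM after UVB against 36.4, 71.0 and 6.78 CPM, with -5.44 ± 0.79 without unirradiated 11. Smoc2, a secreted matricellular protein, was at 2.13, 1.01 and 1.34 CPM against 45.7, 52.3 and 12.6 CPM, with -5.01 ± 0.70. Lce1m, a late cornified envelope gene, was at 27.5, 97.0 and 56.6 CPM against 2501, 1438 and 415 CPM, with -5.32 ± 0.75. None of these 4 genes had overlapping groups, and each passed in all 6 fits that left out a library. Their choice had required no overlap within the Lars2-rich kind and a pass without unirradiated 11. Tnxb, Ppfia4 and Flrt1, which encode tenascin X, a liprin and a fibronectin leucine-rich transmembrane protein, had log2 fold changes of -4.32, -4.24 and -4.14 without unirradiated 11. For Tnxb the groups overlapped, since UVB 1 (23.6 CPM) exceeded unirradiated 11 (20.7 CPM).

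Targets of p53 rose more often than they fell. Of 36 tested, 17 rose, 1 fell and 18 did not pass, where 3.28% of all genes rose and 4.43% fell, and the median log2 fold change was 1.42 against -0.09 over all genes tested. DESeq2 called 17 higher and 2 lower, and limma 21 and 2. Ccng1, cyclin G1, was at 193, 203 and 248 CPM after UVB and at 20.3, 19.0 and 16.6 CPM without. The libraries lay close together within each condition and far apart between them, with a change of 3.55 ± 0.47 on the log2 scale (edgeR adjusted p = 0.00067). Tnfrsf10b, the mouse death receptor for TRAIL, was at 42.8, 25.6 and 36.0 CPM against 4.16, 2.90 and 3.44 CPM, a change of 3.28 ± 0.52. Eda2r, a receptor for an ectodysplasin isoform, was at 13.1, 11.6 and 15.2 CPM after UVB, at 0.921 CPM in unirradiated 2 and at 0 in the other unirradiated libraries. Cdkn1a, the p21 inhibitor of the cell cycle, was at 845, 1138 and 1075 CPM against 379, 246 and 312 CPM, a change of 1.71 ± 0.35. Mdm2, which targets p53 for degradation, rose by 1.17 ± 0.34 (edgeR adjusted p = 0.0446), and it passed only in the fit without unirradiated 1 among those that left out a library (adjusted p of 0.0555 to 0.177 in the others). Sesn1, a sestrin, was the member that fell, by 1.94 ± 0.51 on the log2 scale, with adjusted p of 0.0832 to 0.115 without any irradiated library or unirradiated 2. The number of p53 targets that rose was 8 without UVB 2 or UVB 3, 10 without unirradiated 2, 15 without unirradiated 11 and 16 without unirradiated 1.

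Of 27 genes of nucleotide excision repair and translesion synthesis, 4 rose and none fell, with a median log2 fold change of 0.26. DESeq2 called 4 higher and 2 lower, and limma 5 and 2. The number that rose was 3 without UVB 1 or unirradiated 1 and 2 without any other library. Polk, a polymerase that copies past damaged bases, was at 34.6, 22.1 and 30.3 CPM after UVB and at 7.53, 8.36 and 4.17 CPM without, a change of 2.15 ± 0.32 (edgeR adjusted p = 0.00156). Ercc1, a subunit of the nuclease that cuts beside a lesion, was at 44.9, 59.4 and 60.8 CPM against 10.4, 10.8 and 7.30 CPM, a change of 2.56 ± 0.40. Both were separated by condition in all libraries. Pcna, the sliding clamp of replication and repair, rose by 1.33 ± 0.32, and Gtf2h1, a TFIIH subunit, by 0.92 ± 0.26. Gtf2h1 lost the call in each of the 6 fits that left out a library (adjusted p of 0.0521 to 0.135), and Pcna lost it without UVB 2, UVB 3, unirradiated 2 or unirradiated 11 (0.0524 to 0.0988). Xpc and Ddb2, which recognise UV lesions, did not pass, at -1.02 ± 0.43 and 0.08 ± 0.88.

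Cell cycle genes had 6 members of 32 that rose and none that fell, with a median of 0.85. DESeq2 called 10 higher and 1 lower, and limma 8 and 1. The number that rose was 3 without UVB 2, 4 without UVB 3 and 5 to 7 without any other library. Ccnd1, cyclin D1, was at 81.6, 46.9 and 58.3 CPM after UVB and between 17.1 and 29.2 CPM without (1.49 ± 0.28). Rrm1 and Rrm2, the subunits of ribonucleotide reductase, rose by 1.67 ± 0.33 and 1.88 ± 0.39. Cdc20, an activator of the anaphase-promoting complex, was at 20.9, 20.3 and 18.8 CPM against 5.71, 5.66 and 6.57 CPM, and rose by 1.74 ± 0.37, with an adjusted p of 0.0514 without UVB 2. The proliferation marker Mki67 did not pass, at 0.54 ± 0.33 (edgeR adjusted p = 0.339).

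Basal keratinocytes are held to the basement membrane by hemidesmosomes, built on integrin alpha 6 beta 4 and laminin 332. Of 18 basal and hemidesmosome genes, 7 rose and 1 fell, with a median log2 fold change of 1.46. Itga3, the alpha 3 integrin subunit that binds laminin 332, was at 310, 210 and 263 CPM after UVB and at 22.6, 60.2 and 9.18 CPM in unirradiated 1, 2 and 11. Itgb4 was at 947, 449 and 597 CPM against 101, 198 and 34.5 CPM. Itgb1 was at 428, 382 and 422 CPM against 124, 48.7 and 35.2 CPM. Irradiated libraries exceeded unirradiated ones for all 3 subunits, and the log2 fold changes were 3.38 ± 0.48, 2.71 ± 0.42 and 2.56 ± 0.40 (edgeR adjusted p of 0.00113, 0.00182 and 0.00182). Itga6 rose by 2.33 ± 0.55 and Lama3, the alpha chain of laminin 332, by 2.17 ± 0.49. Without UVB 3 neither passed (edgeR adjusted p of 0.072 and 0.0709), nor did Itga6 without UVB 2 (0.0655) or unirradiated 2 (0.0509). Unirradiated 11 was the lowest library for each of these 5 genes, and the list had 6 genes that rose without it, 4 without UVB 2 or unirradiated 2, 3 without UVB 3 and 10 without unirradiated 1. Krt5, the partner of Krt14, rose by 1.54 ± 0.41, a call that held only without unirradiated 1 among the fits that left out a library (adjusted p of 0.0534 to 0.127 in the others). Krt15, a keratin of resting basal and bulge cells, fell by 3.04 ± 0.61 on the log2 scale, from 616, 360 and 318 CPM to 18.9, 50.9 and 118 CPM, with an adjusted p of 0.0581 without UVB 2.

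Receptors of osteopontin other than Itgb1 did not pass the test. Of 11 genes in the list of Spp1 and its receptors, Itgb1 rose and none fell. Cd44 was at 544, 680 and 650 CPM after UVB and at 1061, 95.4 and 151 CPM in unirradiated 1, 2 and 11, so unirradiated 1 lay above all irradiated libraries (0.74 ± 0.58, edgeR adjusted p = 0.459). Itgav was at 164, 71.2 and 76.8 CPM against 88.6, 112 and 87.9 CPM, with overlapping groups and a log2 fold change of 0.02 ± 0.30. Without unirradiated 1, 4 of the 11 rose, and without unirradiated 11, 1 rose and 1 fell.

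**Figure D4:**
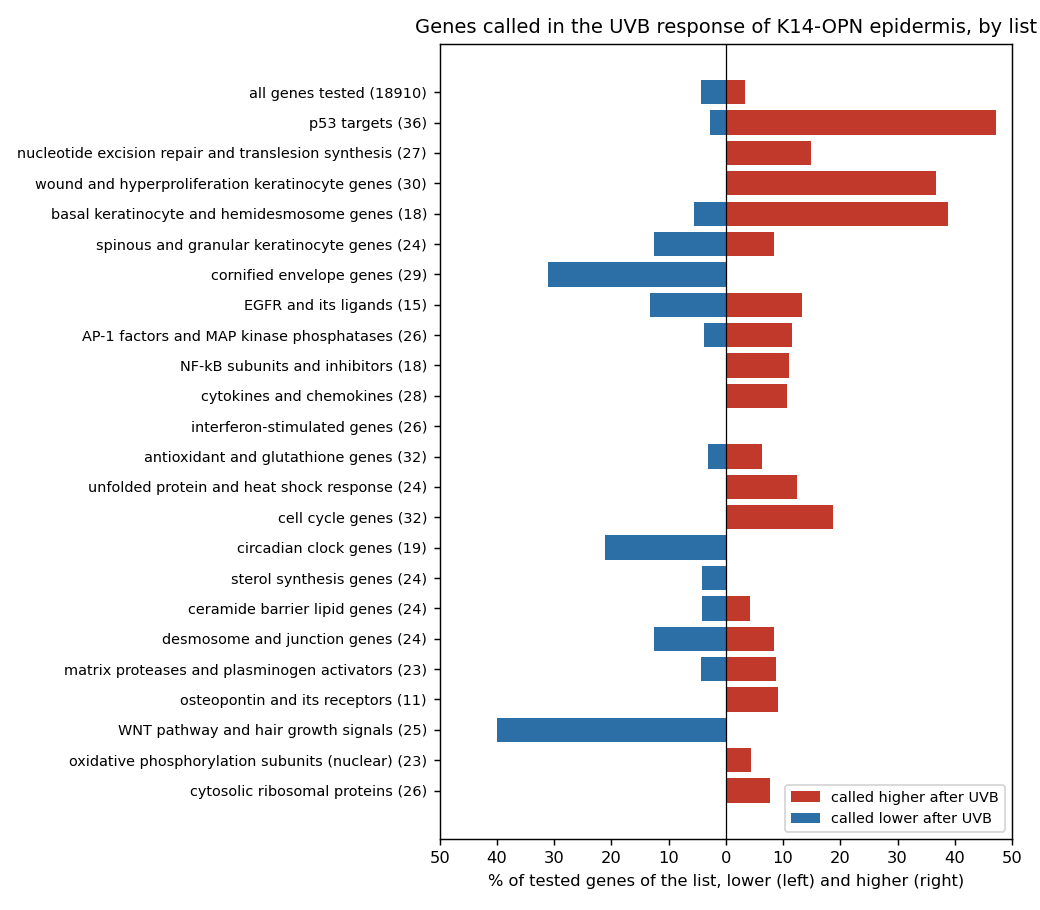
Share of the tested genes of each list that rose (red, right) or fell (blue, left) after UVB in K14-OPN epidermis, with the number tested in parentheses and all genes tested at the top. Among p53 targets 17 of 36 rose, and among cornified envelope genes 9 of 29 fell.

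Genes of wounded and hyperproliferative epidermis had 11 of 30 tested that rose and none that fell, with a median log2 fold change of 2.50. DESeq2 called 20 higher and 1 lower. Krt6a was at 4768, 6846 and 6382 CPM after UVB and at 1645, 28.8 and 437 CPM in unirradiated 1, 2 and 11. Krt16, its partner keratin, was at 5385, 11118 and 9189 CPM against 2991, 159 and 377 CPM. Unirradiated 1 was the highest unirradiated library for both and lay closest to the irradiated ones. Krt16 rose by 3.19 ± 0.74 (edgeR adjusted p = 0.0175, and 0.0634 and 0.0578 without UVB 2 or unirradiated 2). Klk6, a kallikrein protease, rose by 3.54 ± 0.52, Serpinb3b, a serpin, by 3.15 ± 0.61, and Sprr1b, a small proline-rich envelope protein, by 2.65 ± 0.58. For Sprr1b the groups overlapped, since unirradiated 1 (989 CPM) exceeded UVB 1 (476 CPM). Defb3, a beta defensin, was at 9.13, 45.3 and 8.48 CPM after UVB and at 0.779, 0.354 and 0 CPM without, a change of 5.61 ± 1.08. Krt6b and Krt17 did not pass, at 3.97 ± 1.20 (edgeR adjusted p = 0.0529) and 1.48 ± 0.51 (0.0851). The number of wound genes that rose was 25 without unirradiated 1, 10 without unirradiated 11, 8 without UVB 1 or UVB 3, 6 without UVB 2 and 5 without unirradiated 2. The mean log2 CPM of the list was 6.79, 8.37 and 7.72 in the irradiated libraries, 6.84 in unirradiated 1, and 3.04 and 3.94 in unirradiated 2 and 11.

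Genes of the cornified envelope that passed over all 6 libraries were lower. Of 29 cornified envelope genes, 9 fell and none rose, with a median log2 fold change of -2.07, and DESeq2 called 15 lower and 2 higher. Beside Lce1m, these were Lce1l (-3.36 ± 0.78), Lce1a1 (-2.95 ± 0.70), Lce1a2 (-3.41 ± 0.81), Lce1b, Lce1g, Lce1j, Flg2 and Tchhl1. Members of the Lce family are similar in sequence, and reads that match several of them may have been lost or shared in counting. The count of genes that fell was 17 without unirradiated 11, 6 without unirradiated 1, with 6 others that then rose, 4 without unirradiated 2, 2 without UVB 2 and 1 without UVB 1 or UVB 3. Loricrin and filaggrin, the bulk proteins of the envelope and its matrix, did not pass, with Lor at -2.07 ± 0.78 and Flg at -1.23 ± 0.54. Of 24 spinous and granular genes, 2 rose and 3 fell, and the suprabasal keratins Krt1 and Krt10 did not pass, at 0.33 ± 0.73 and -0.38 ± 0.70. Gata3, a transcription factor of differentiation, was at 60.3, 84.7 and 83.6 CPM after UVB and at 1032, 269 and 947 CPM without (-2.94 ± 0.48, edgeR adjusted p = 0.0021). Calml3, a calmodulin-like protein, fell by 2.27 ± 0.41 on the log2 scale, and Dsg1b, a desmoglein of the upper layers, rose by 1.85 ± 0.35.

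Junction genes changed in both directions, with 2 of 24 that rose and 3 that fell and a median of -0.14, or 0.34 without unirradiated 11. DESeq2 called 5 higher and 3 lower, and limma 8 and 5. Without UVB 2 or UVB 3, 1 rose and 1 fell. Dsg3, the desmoglein of the basal and lower layers, was at 722, 466 and 506 CPM after UVB and at 200, 80.4 and 114 CPM without, a change of 2.07 ± 0.39 (edgeR adjusted p = 0.00546). Gjb5, a connexin, was at 14.0, 19.0 and 21.1 CPM against 132, 115 and 154 CPM, a change of -2.91 ± 0.47 (edgeR adjusted p = 0.0021). For both genes the conditions did not overlap, and both passed in all fits that left out a library. Dsg2 fell by 2.10 ± 0.44 on the log2 scale and plakoglobin, Jup, rose by 1.39 ± 0.33, with adjusted p of 0.0674 to 0.0872 for these 2 genes without UVB 2 or UVB 3.

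Ligands of the EGF receptor split. Of 15 genes of the receptor and its ligands and regulators, 2 rose and 2 fell, with a median of 0.15. Beside Epgn, Areg, amphiregulin, was at 74.6, 135 and 155 CPM after UVB and at 57.1, 6.87 and 45.6 CPM in unirradiated 1, 2 and 11 (2.10 ± 0.37, edgeR adjusted p = 0.00352). Btc, betacellulin, was at 9.89, 3.88 and 4.74 CPM against 47.3, 107 and 8.76 CPM (-2.99 ± 0.74). In the pooled reading UVB 1 exceeded unirradiated 11 for Btc, and within each library kind the irradiated libraries were lower. Its adjusted p was 0.0633 to 0.108 without any irradiated library or unirradiated 2. Lrig3, a membrane protein of a family that regulates the receptor, fell by 2.00 ± 0.40 on the log2 scale. Hbegf, another ligand, was at 359 CPM in unirradiated 1, within the range of 196 to 419 CPM after UVB, and did not pass (1.73 ± 0.70). Egfr itself did not pass, at 0.38 ± 0.26.

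Of 26 AP-1 factors, immediate early genes and MAP kinase phosphatases, 3 rose and 1 fell, and limma called 10 higher. Fosl1, the AP-1 factor FRA-1, was at 12.8, 7.87 and 11.6 CPM after UVB and at 0.260, 0.425 and 0 CPM in unirradiated 1, 2 and 11. That is a log2 fold change of 6.61 ± 1.19 (edgeR adjusted p = 0.00409) on 1, 6 and 0 unirradiated reads. Ier5l, an immediate early response gene, rose by 2.61 ± 0.36 and Dusp7, a phosphatase of ERK, by 2.00 ± 0.35. Dusp14 fell by 3.16 ± 0.92 on the log2 scale, on 2161 CPM in unirradiated 11 against 45.6 to 124 CPM in the other 5 libraries, and had an adjusted p of 0.523 without it and of 0.0721 to 0.185 without any irradiated library. Fos did not pass, at 1.30 ± 0.84. Among 18 NF-kB subunits and inhibitors, Rela rose by 1.74 ± 0.28, from 33.0, 33.4 and 30.4 CPM to 87.3, 120 and 116 CPM, and Bcl3, a nuclear IkB protein, by 2.43 ± 0.52 (adjusted p of 0.0547 without UVB 2). None of that list fell by edgeR, DESeq2 or limma. Without unirradiated 1, 12 of the first list and 7 of the second rose.

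Cytokines that passed by edgeR all rose. Of 28 cytokines and chemokines tested, Il24, Il33 and Cxcl5 rose and none fell, where 3.28% of all genes rose and 4.43% fell. The median log2 fold change was 1.25. DESeq2 called 7 higher and limma 9, and neither called any lower. Il33, an alarmin of keratinocytes, was at 232, 320 and 407 CPM after UVB and at 88.8, 9.28 and 2.09 CPM without (3.37 ± 0.98, edgeR adjusted p = 0.0441). It passed only in the fit without unirradiated 1 among those that left out a library, with 0.0517 to 0.133 in the others. Cxcl5 had 1 read in the unirradiated libraries together, and no fold change is given, and it too passed only without unirradiated 1 (0.0512 to 0.101 in the others). Il1b was at 309, 2421 and 2012 CPM after UVB and at 3353, 17.2 and 9.29 CPM in unirradiated 1, 2 and 11, so the groups overlapped through unirradiated 1 (0.98 ± 1.25). Tnf and Cxcl2 showed the same order, with unirradiated 1 above all irradiated libraries. Of 26 interferon-stimulated genes, edgeR and DESeq2 called 0 and limma 3 higher, and 1 had an unadjusted edgeR p below 0.05. Without unirradiated 1, 14 cytokines and chemokines and 9 interferon-stimulated genes rose, and without unirradiated 11, 1 and 0 did. The part of the inflammatory transcripts of unirradiated 1 in these counts was not tested beyond leaving it out.

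Matrix proteases and plasminogen regulators followed the same library. Of 23 tested, Serpinb2 and Mmp1b rose and Adamts14 fell, and 13 rose without unirradiated 1 and 0 without any other library. DESeq2 called 2 higher and limma 8. Serpinb2, an inhibitor of plasminogen activators, was at 590, 1064 and 1360 CPM after UVB and at 453, 103 and 119 CPM without (2.20 ± 0.58). Mmp1b, a collagenase homologue, rose by 4.48 ± 1.26. Both passed only without unirradiated 1 among the fits that left out a library, with adjusted p of 0.0523 to 0.118 for Serpinb2 and 0.0555 to 0.142 for Mmp1b in the others.

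Among 32 antioxidant and glutathione genes, Gsta4 and Gpx1 rose and Mt4 fell, with a median of -0.01, or 0.31 without unirradiated 11. DESeq2 called 4 higher and limma 7, and 6 rose without unirradiated 1. Gpx1, glutathione peroxidase 1, was at 404, 797 and 723 CPM after UVB and at 252, 80.4 and 69.7 CPM without (2.27 ± 0.38, edgeR adjusted p = 0.00286). Nqo1 and Hmox1, targets of the oxidative stress factor NRF2, did not pass, at 2.75 ± 0.87 (edgeR adjusted p = 0.0612) and -0.39 ± 0.34. Of 24 genes of the unfolded protein and heat shock responses, 3 rose and none fell by edgeR, with 1 lower by DESeq2 and 1 by limma. Dnajb9, a chaperone of the endoplasmic reticulum, was at 91.2, 158 and 171 CPM against 60.5, 7.01 and 42.8 CPM (2.19 ± 0.46). Hspa8 and Calr rose by 1.70 ± 0.41 and 1.36 ± 0.32, with adjusted p of 0.0538 to 0.0834 for these 2 genes in the fits where they were lost (without UVB 2, UVB 3 or unirradiated 2 for both, and without UVB 1 for Calr).

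Clock genes fell where they passed. Of 19 tested, 4 fell and none rose by edgeR, with a median of -0.60, or -1.06 without unirradiated 11. DESeq2 called 5 lower and limma 8, and neither called any higher. Without UVB 2 or UVB 3, 1 fell. Per3, a repressor of the clock, was at 21.3, 6.97 and 9.38 CPM after UVB and at 66.0, 148 and 26.5 CPM in unirradiated 1, 2 and 11 (-2.63 ± 0.50, edgeR adjusted p = 0.00569). Hlf, a clock output factor, fell by 3.12 ± 0.63 on the log2 scale, Rora, an activator of the clock, by 1.83 ± 0.44, and Bhlhe41, a repressor, by 2.35 ± 0.65. Hlf and Rora lost the call without UVB 2 or UVB 3, at adjusted p of 0.0524 to 0.118, and Bhlhe41 without these or unirradiated 2 or 11, at 0.0593 to 0.178. Per2 and Dbp did not pass, at 0.04 ± 0.52 and -1.40 ± 1.00. The labels give no time of day of sampling.

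Signals of the hair follicle had 10 of 25 genes that fell and none that rose, with a median log2 fold change of -2.89, or -1.56 without unirradiated 11. DESeq2 called 16 lower and 1 higher. Apcdd1, an inhibitor of WNT signalling, was at 5.94, 4.15 and 4.39 CPM after UVB and at 35.6, 48.2 and 57.3 CPM without. Wnt3 was at 13.6, 11.5 and 14.7 CPM against 82.6, 79.6 and 149 CPM. Sfrp1, a secreted WNT inhibitor, was at 3.20, 3.67 and 5.32 CPM against 35.6, 18.9 and 42.0 CPM. For these 3 genes unirradiated 11 was the highest library but did not stand apart, and each irradiated library was below each unirradiated one. The log2 fold changes were -3.31 ± 0.39, -2.92 ± 0.35 and -2.89 ± 0.49 (edgeR adjusted p of 0.000392, 0.000392 and 0.00286). Bmp4 was at 34.0 CPM in unirradiated 11 and at 6.23 and 7.36 CPM in unirradiated 1 and 2, against 0.812 to 3.03 CPM after UVB (-3.12 ± 0.65, with edgeR adjusted p = 0.0528 without unirradiated 11 and 0.067 without UVB 3). Of the list, 6 fell without unirradiated 11 or UVB 1, 4 without UVB 2, 3 without UVB 3, 11 without unirradiated 2 and 15 without unirradiated 1.

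Counts of lipid genes called by edgeR were near the shares of all genes tested, of which 3.28% rose and 4.43% fell. Of 24 ceramide genes, Elovl6, a fatty acid elongase, fell by 1.99 ± 0.49 on the log2 scale and Sptlc2, a subunit of serine palmitoyltransferase, rose by 1.27 ± 0.35. DESeq2 called 4 ceramide genes higher and 3 lower, limma 7 and 3, and the fit without unirradiated 1 called 5 higher and 1 lower. Of 24 sterol synthesis genes, Fdft1, squalene synthase, fell by 0.81 ± 0.23. None of the 3 passed in every fit that left out a library, with adjusted p of up to 0.167 without UVB 3. Among 23 nuclear subunits of oxidative phosphorylation, Uqcrc2 rose by 1.97 ± 0.47, with adjusted p of 0.0751 and 0.0796 without UVB 2 or UVB 3 and 0.0524 without unirradiated 2. DESeq2 called 5 of these subunits higher and limma 7. Among 26 cytosolic ribosomal proteins, 2 rose, of which Rpl19 rose by 1.21 ± 0.35 and passed only without UVB 1 among such fits (0.0725 to 0.155 in the others).

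Markers of other cells moved with the condition in part. Of 15 dermal fibroblast markers tested, 3 fell and none rose (0 fell without any 1 irradiated library, and DESeq2 and limma each called 8 lower), the median log2 fold change was -1.98, and their summed level was 184 to 390 CPM after UVB and 655 to 3469 CPM without. Col1a1, the alpha 1 chain of type I collagen, was at 25.9, 55.3 and 45.8 CPM against 861, 1403 and 351 CPM (-4.06 ± 1.09, edgeR adjusted p = 0.0328, and 0.0529 to 0.123 without any irradiated library or unirradiated 2). Adamts14, Smoc2 and Tnxb, described above, are genes that dermal fibroblasts also express, and with the mean of the fibroblast markers as a covariate their log2 fold changes were -3.82, -3.27 and -2.89 (edgeR adjusted p of 0.0123, 0.00368 and 0.0142). In that fit 1970 genes passed. Of 12 macrophage markers, 1 rose by edgeR over all libraries, 3 by limma and 5 without unirradiated 1. The first was Cd68, which rose from 13.5, 2.76 and 5.32 CPM to 22.7, 73.6 and 82.5 CPM (3.07 ± 0.48, edgeR adjusted p = 0.00182), and the list summed to 396 to 2422 CPM after UVB and to 2248, 107 and 69.3 CPM in unirradiated 1, 2 and 11. Of 9 neutrophil markers, edgeR and DESeq2 called 0 and limma 3, with 0 at an unadjusted edgeR p below 0.05 and 5 that rose without unirradiated 1. Langerhans cell and MHC class II markers summed to 327 to 568 CPM after UVB and 293 to 595 CPM without, and 0 of 11 passed, with 2 at an unadjusted p below 0.05 2 lower by DESeq2 and 1 in each direction by limma. Of 6 dendritic epidermal T cell markers, 0 passed by edgeR, DESeq2 or limma, and 0 had an unadjusted p below 0.05. Of 21 hair shaft markers 14 fell, of which 1 passed without unirradiated 11 and 20 fell without unirradiated 1. Among 8 inner root sheath, 8 melanocyte and 12 sebocyte markers 1 of each fell, with none without unirradiated 11 and with 7, 4 and 2 without unirradiated 1, where 2 sebocyte markers also rose. The 4 lists for endothelium, striated muscle, adipocytes and erythrocytes had 0 calls by edgeR and DESeq2 and 1 at an unadjusted p below 0.05, and limma called 1 endothelial gene. Adipoq, Lep, Myh1, Elane and Tcrg-V5 had 0 counts in all 6 libraries. Keratinocyte markers were abundant in all 6, with Krt5 at 886 to 4502 CPM.

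The same model gave the UVB response of OPN-null epidermis, which lacks osteopontin, and of WT epidermis. In OPN-null 2594 genes passed (13.7% of those tested, with 7.22% higher and 6.5% lower) and in WT 705 (3.73%, with 1.99% higher and 1.73% lower), from 7 and 5 libraries. Of the 1458 genes of K14-OPN, 838 also passed with the same sign in OPN-null, which is 57.5% of the K14-OPN and 32.3% of the OPN-null genes. In WT 497 did, which is 34.1% of the K14-OPN and 70.5% of the WT genes. No gene passed with opposite signs in either pair. The 3 comparisons share no libraries but share 1 estimate of spread per gene.

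No gene differed in its UVB response between K14-OPN and OPN-null or between K14-OPN and WT by edgeR's test of the difference (0% of 18910 in each). The smallest adjusted p was 0.609 against OPN-null and 1 against WT. At an unadjusted p below 0.05 there were 1543 and 307 genes. DESeq2 called 32 (7 with a higher and 25 with a lower response in K14-OPN) and 6 (3 and 3), and limma called 0 in both. These counts do not show that the responses are alike. The genes below were chosen after their values were seen.

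Several adhesion genes had larger fold changes in K14-OPN than in OPN-null, without passing. The log2 fold change of Itga3 was 3.38 ± 0.48 in K14-OPN, 1.54 ± 0.43 in OPN-null and 2.75 ± 0.55 in WT. That of Lama3 was 2.17 ± 0.49, 0.32 ± 0.45 and 0.67 ± 0.54, and the difference between K14-OPN and OPN-null was 1.85 ± 0.65 (edgeR adjusted p = 0.609). Itgb4 differed from OPN-null by 1.30 ± 0.55 and Krt5 by 1.08 ± 0.55. Wound genes were on the other side: Sprr1b differed by -2.08 ± 0.76, Krt6a by -2.42 ± 1.07 and Areg by -1.52 ± 0.50 (each edgeR adjusted p = 0.609). In WT the values of Krt6a and Sprr1b were 5.36 ± 1.07 and 2.93 ± 0.68, against 3.82 ± 0.85 and 2.65 ± 0.58 in K14-OPN. Unirradiated 1 of K14-OPN, with its high wound transcripts, enters these differences. So does unirradiated 11, the lowest library for Itga3, Itgb4 and Lama3, whose K14-OPN values were 2.98, 2.335 and 1.74 without it. In OPN-null unirradiated libraries 8 and 9, the top 10 genes held 65.9% and 84.3% of gene counts, against 12.4% to 38.2% in K14-OPN libraries. The part of these libraries in the differences was not tested. Krt14 and Epgn were close in all 3 genotypes, with differences from OPN-null of -0.04 ± 0.84 and -0.16 ± 0.67. Spp1 differed by 3.03 ± 1.44 from OPN-null (edgeR adjusted p = 0.612) and by -0.07 ± 1.43 from WT.

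**Figure D5:**
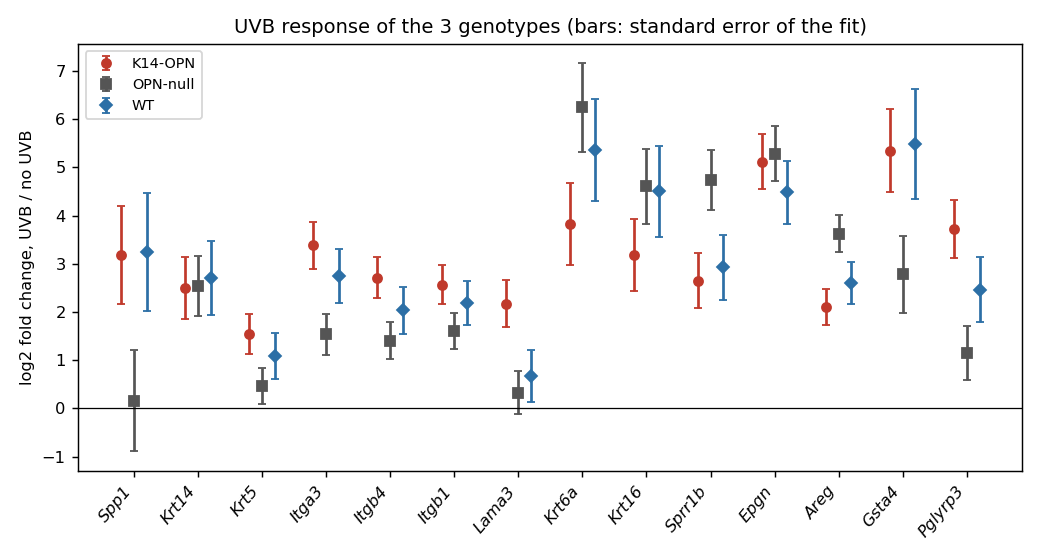
Log2 fold change after UVB of 14 genes in K14-OPN (red circles), OPN-null (grey squares) and WT (blue diamonds), with the standard error of the fit as bars. Itga3 is highest in K14-OPN at 3.38, and Krt6a is lowest there at 3.82 against 6.24 in OPN-null, and none of these differences passed.

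By list, p53 targets that rose numbered 17 of 36 in K14-OPN, 19 in OPN-null and 14 in WT. Wound genes that rose numbered 11 of 30 in K14-OPN, 21 in OPN-null and 10 in WT, with medians of 2.50, 3.85 and 2.94. Basal and hemidesmosome genes that rose numbered 7 of 18, 5 and 4, with medians of 1.46, 0.53 and 1.06. Cornified envelope genes that fell numbered 9 of 29, 12 and 0, with 0, 8 and 2 that rose. WNT and hair growth genes that fell numbered 10 of 25, 7 and 4. These counts also follow the number and spread of libraries in each genotype, and the differences between them were not tested as lists.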

How the data were processed

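RNA of scraped epidermis, described as polyA RNA, was sequenced, and the authors deposited raw counts per gene for 18 libraries. Whether the selection of RNA was the same in both library kinds was not tested. Per the submitters' processing notes the tools included STAR 2.7.5a, HTSeq 0.11.3, Trim Galore 0.6.5 and bcl2fastq 2.18.0.12, with the GRCm38 build. For the strand setting and for reads that match several genes, the choice is not given in the sources used here. Of 56246 genes, 55144 received a symbol by gene identifier. The 5 summary lines were left out of library sizes; reads assigned to no feature made up 20.8% to 50.4% of each K14-OPN library.

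All 18 libraries entered 1 edgeR fit (4.0.16, R 4.3.3) with a term for each genotype and treatment and a term for library kind, set by whether Rn7sk counts exceed Lars2 counts. Kind divides every group and was read from the counts, since the labels give no batch. TMM scaling, filterByExpr with a minimum count of 10 (15 in total), quasi-likelihood tests and Benjamini-Hochberg adjustment over 18910 genes were used, with calls at an adjusted p below 0.05. Standard errors were derived from the fold change and its F statistic. Log2 fold changes used a prior count of 0.125 and log2 CPM a prior count of 2. In simulated counts, the fit called 39.1% of genes changed 8-fold, 20.3% of those changed 4-fold and 1.56% of those changed 2-fold (64 each, 17868 genes run). It missed most changes of each of these sizes.

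The comparison and its gene lists were chosen with earlier results of these data known. Genes were named by rule. It takes Spp1, the called genes with the 12 highest and the 12 lowest fold changes (at least 1 in size on the log2 scale, with log2 CPM averaging 2 or more, the same direction in both library kinds and no overlap within the Lars2-rich kind), up to 4 called members of each list by smallest p, and members whose failure to pass is described. Cdkn1a, Mdm2, Sesn1, Krt14, Krt5, Krt16, Itga6, Lama3, the cornified envelope genes beyond the first 4, the genes that fell with and without unirradiated 11, and the genes compared between genotypes were chosen after their values were seen. Alternatives were DESeq2 1.42.0 and limma 3.58.1, other scaling and filters, subsets of libraries and a replicate block. Some genes that the rule names are not reported here.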

Additional observations from a re-analysis of the deposited data

How the results depend on the processing

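The number of genes that passed in K14-OPN depended on the model more than on scaling. It was 3182 with DESeq2, 3957 with limma and quality weights, 200 without the term for library kind, 708 with the Lars2-rich libraries only and 0 with the 6 K14-OPN libraries alone, against 1458. Leaving out 1 K14-OPN library gave 342 to 2203. With RLE scaling, no filter, the fibroblast covariate or 3 unirradiated libraries that stand apart left out, it was 1486, 1993, 1970 and 2174. A replicate block gave 1075 genes. The labels give no meaning to the numbers that irradiated and unirradiated libraries share. Deviations from the group mean correlated at -0.165 for number 1 and 0.186 for number 2. With no other pairs beside them, these values cannot show whether the numbers pair libraries.

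The log2 fold change of Spp1 stayed between 1.98 and 3.94 under every alternative. It passed with DESeq2 (3.12), without a filter (3.17) and with the Lars2-rich libraries only (2.90), and was 3.10 with the replicate block. Differences from OPN-null numbered 32 with DESeq2, 141 without a filter and 0 to 1 when a library was left out; those from WT numbered 6 with DESeq2. Without unirradiated 11 the median log2 fold change turned from -0.14 to 0.34 for junction genes and from -0.01 to 0.31 for antioxidant genes. The causes of these differences were not tested. Depth limits genes near 0 in unirradiated 1, the shallowest of the 6 libraries.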
